A study of Homo sapiens with 14 samples.

Results

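*BRCA1* and *BRCA2* encode tumor suppressors of homologous recombination, the pathway that mends DNA double-strand breaks from an intact sister copy. BRCA1 works as a ubiquitin ligase together with BARD1 and helps to prepare broken ends, and BRCA2 acts at a later step of the same repair. Cells without either protein depend on more error-prone repair. The sgRNAs described here are those whose ID names *BRCA1* or *BRCA2*, 5 for each gene and 10 of the 9077 sgRNAs in each screen. The study describes its sgRNAs against oncogenes and tumor suppressors as ones with which the cytosine base editor FNLS-BE3, which changes C to T, should create a premature stop. No source used here describes the *BRCA1* and *BRCA2* sgRNAs one by one.

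They were measured in a pair of pooled screens. In the first, A549 cells, a lung carcinoma line, carried FNLS-BE3 from a lentivirus and were grown after antibiotic selection for the library, with 1 library at day 0 and 2 libraries each at days 10, 20 and 30. In the second, a population of H1 human embryonic stem cells carried FNLS-ABE7.10(AW), an adenine base editor, from a lentivirus. It was differentiated toward definitive endoderm and was sorted for the lowest (CXCR4-) and highest (CXCR4+) CXCR4 signal, with 3 libraries of each from 3 screens. CXCR4 is a chemokine receptor that marks endoderm cells. An adenine base editor changes A to G, which does not make the stops that a C-to-T change makes. No file used here gives the sequences of these sgRNAs, the codons they target or how far they edited, so the part of editing in any value below was not tested.

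On GRCh37 the annotation gives *BRCA1*, on the minus strand, a span of chr17:41196312-41322262 over all its transcripts, and *BRCA2* on the plus strand at chr13:32889223-32974405. The canonical transcript of *BRCA1* is shorter, at chr17:41196312-41277381, has 23 exons and encodes 1863 amino acids. It holds 111 codons that a C-to-T change on either strand can turn into a stop, of which 40 are CAA, 57 are CAG, 4 are CGA and 10 are TGG. That of *BRCA2* has 27 exons, encodes 3418 amino acids and holds 179 such codons, 83 CAA, 71 CAG, 5 CGA and 20 TGG. These codons are the space from which stop-making sgRNAs can be drawn, before the need for a nearby PAM.

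Values are normalized counts as deposited by the authors. Read totals were derived here from the step between values in each library, which gave 14925937 to 16457222 reads in A549 and 8076271 to 11341078 in H1. The counting errors below rest on these derived reads. The log2-fold change (LFC) was taken after a pseudocount of 1, and 1000 non-targeting sgRNAs in the same libraries were the reference. At day 0 the *BRCA1* sgRNAs ranged from 1554 to 2062 normalized counts. The *BRCA2* sgRNAs spread more widely, from 1012 for *BRCA2*-3 and 1080 for *BRCA2*-2 to 2592 for *BRCA2*-5. Read counting alone gave each A549 LFC of these sgRNAs a standard error of 0.04 to 0.07, which covers counting error only, since PCR reads are not independent molecules.

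After 30 days in A549 none of the 10 sgRNAs was beyond an LFC of 1 in size, the threshold of the study. Over the whole screen 1.52% of sgRNAs had a mean LFC below -1 and 0.705% above 1. The means over both day 30 libraries ran from -0.52 for *BRCA2*-1 to 0.44 for *BRCA1*-5, and all 10 lay between the 5th and the 95th percentile of the non-targeting sgRNAs, which were -0.64 and 0.65. At day 10 this held for 9 of the 10, all but *BRCA1*-1 with -0.57 (reference range -0.34 to 0.37). At day 20 it held for 7, with *BRCA1*-1 at -0.43, *BRCA1*-2 at -0.42 and *BRCA1*-3 at 0.48 outside a range of -0.41 to 0.46. The median of the 10 day 30 means was -0.07, beside 0.00 over all sgRNAs. The *BRCA1* sgRNAs averaged 0.04 and 0.10 in the day 30 libraries, or 0.07 ± 0.04 (SD, n = 2 libraries). The *BRCA2* sgRNAs averaged 0.08 and -0.24, or -0.08 ± 0.23 (SD, n = 2), so the second gene's mean had opposite signs in the replicates. Within a gene, the SD over the 5 day 30 means was 0.31 for *BRCA1* and 0.29 for *BRCA2*, beside 0.41 over the non-targeting sgRNAs.

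limma fitted over all 7 libraries gave no *BRCA1* or *BRCA2* sgRNA an adjusted p under 0.05 at any day. By the same rule 0% of all sgRNAs were lower and 0.011% higher at day 30, and 0% in either direction at days 10 and 20. Even the sgRNA with the lowest day 30 mean of the screen, an LFC of -6.67, did not pass. Not passing this fit therefore says little about the size of a change. The adjusted p of the 10 was 1 at day 10, 0.999 at day 20 and 0.381 to 0.96 at day 30. Unadjusted, 1 of the 10 had a p under 0.05 at day 30, where 13% of all sgRNAs did, and none at day 10 (1.4%) or day 20 (2.79%). Of the 1000 non-targeting sgRNAs, 138 had such a p at day 30, beside 15 at day 10 and 24 at day 20. At day 30 the 95% interval of the LFC lay within 1 in size for 8 of the 10 sgRNAs. The exceptions were *BRCA2*-1, whose interval ran from -1.03 to 0.00, and *BRCA1*-5, from -0.30 to 1.18. This fit takes the spread of the lone day 0 library from the later days. It also shares the spread of each sgRNA across days, although replicates lay farther apart at day 30. The day 30 intervals may therefore be too narrow and the day 30 p values too low. The study calls its A549 replicates biologically independent, while neither the labels nor the methods say at which step the cultures were split, and all share the day 0 library. The p values measure only the spread between these libraries. With the replicate number as a fixed block, a fit chosen after seeing the data, 1.94% of all sgRNAs passed and 0 of the 10, whose adjusted p was 0.147 to 0.927.

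Counted by sign, 5 of the 10 were below day 0 in both day 10 libraries (33.3% of all sgRNAs) and 2 above it in both (34.5%). At day 20 these numbers were 6 (33.1%) and 2 (33.7%). At day 30 they were 2 (31.6%) and 3 (32.4%), so the other 5 had replicates on opposite sides of day 0 by then. *BRCA2*-4 was the only one of the 10 that was below day 0 in both day 10 libraries and above it in both day 30 libraries, which 3.28% of all sgRNAs were.

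*BRCA2*-1 was the sgRNA with the lowest day 30 mean. It had 1739 normalized counts at day 0, 1352 and 1499 at day 10, 1451 and 1478 at day 20, then 1250 and 1181 at day 30. Each later library was thus below day 0, and the replicates stayed close together. Relative to day 0 it stood at 0.777 and 0.862 at day 10, 0.834 and 0.85 at day 20, then 0.719 and 0.679 at day 30. The day 30 LFC was -0.52 ± 0.06 (SD, n = 2; adjusted p = 0.381 from limma, unadjusted p = 0.0486). Of the non-targeting sgRNAs, 112 of 1000 had a lower mean at that day. Being below day 0 in all 6 later libraries, which share the day 0 library, was common, at 17.1% of all sgRNAs, and held for *BRCA2*-1 and *BRCA1*-2.

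*BRCA1*-1 had the lowest early value of the 10. From 1972 normalized counts at day 0 it stood at 1394 and 1260 at day 10, 1695 and 1258 at day 20, then 2064 and 1381 at day 30. Both day 10 libraries were low, while at day 30 replicate 1 was above day 0 and replicate 2 was not. The LFC was -0.57 ± 0.10 (SD, n = 2) at day 10, with 7 of 1000 non-targeting sgRNAs lower, and -0.22 ± 0.41 (SD, n = 2) at day 30, with 260 lower. Its day 10 interval ran from -1.27 to 0.13. It was the only one of the 10 under the 5th percentile of the reference in both libraries of day 10, as were 1.96% of all sgRNAs and 20 of the 1000 non-targeting sgRNAs. None of the 10 was above the 95th percentile in both (1.69% of all sgRNAs). At day 20 none was under the 5th (1.85%) or above the 95th percentile (1.32%) in both libraries, and at day 30 none was either (1.59% and 1.34%).

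*BRCA1*-3 and *BRCA1*-5 had the highest day 30 means. *BRCA1*-3 went from 2062 normalized counts at day 0 to 2245 and 2377 at day 10, 2695 and 3053 at day 20, then 2251 and 3157 at day 30. It was above day 0 in all 6 later libraries, as were 18% of all sgRNAs, and was the only one of the 10 to be so. Its LFC was 0.16 at day 10, 0.48 ± 0.13 (SD, n = 2) at day 20 and 0.37 ± 0.34 (SD, n = 2) at day 30, where replicate 1 stood at 0.13 and replicate 2 stood at 0.61. At day 20 only 45 of 1000 non-targeting sgRNAs were higher, and at day 30 it was 178. *BRCA1*-5 was at 1554 normalized counts at day 0, at 1347 and 1799 at day 10, 1436 and 2145 at day 20, then 1805 and 2475 at day 30. Replicate 2 was the higher library of *BRCA1*-5 at each day, by 0.42, 0.58 and 0.46 on the log2 scale, and its mean LFC at day 30 was 0.44 ± 0.32 (SD, n = 2; adjusted p = 0.59 from limma).

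*BRCA2*-4 lay below day 0 up to day 20 and above it at day 30. It had 2020 normalized counts at day 0, 1800 and 1630 at day 10, 1748 and 1630 at day 20, then 2528 and 2326 at day 30. All 4 libraries of days 10 and 20 were below day 0 and both of day 30 were above it, a course shared by 1.16% of all sgRNAs and by 10 of the 1000 non-targeting sgRNAs. From day 20 to day 30 the LFC was 0.53 in replicate 1 and 0.51 in replicate 2. limma gave this step an unadjusted p of 0.0115 and an adjusted p of 0.876. Over the screen 5.17% of all sgRNAs had an unadjusted p under 0.05 for the same step. From day 10 to day 30 the LFC was 0.49 and 0.51 (adjusted p = 0.394 from limma, unadjusted p = 0.014), a step for which 10.8% of all sgRNAs had an unadjusted p under 0.05. The day 30 LFC over day 0 was 0.26 ± 0.08 (SD, n = 2).

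Of the other *BRCA1* sgRNAs, *BRCA1*-2 had the closest replicates. Its normalized counts were 1978 at day 0, 1658 and 1659 at day 10, 1477 and 1480 at day 20, then 1668 and 1920 at day 30. All later libraries were below day 0, most so at day 20, with an LFC of -0.42 there and -0.14 ± 0.14 (SD, n = 2) at day 30. *BRCA1*-4 stood at 1842 normalized counts at day 0, 1589 and 1897 at day 10, 1753 and 1694 at day 20, then 1902 and 1583 at day 30. It lay on both sides of day 0 at days 10 and 30, and its means were -0.09, -0.10 and -0.09 at the 3 days.

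The remaining *BRCA2* sgRNAs had day 30 means near 0, and their replicates differed in how far apart they lay. *BRCA2*-3 went from 1012 normalized counts to 1034 and 996 at day 10, 1229 and 972 at day 20, then 989 and 1102 at day 30, with a day 30 LFC of 0.05 ± 0.11 (SD, n = 2). Its replicates were both close to day 0 at day 30. *BRCA2*-2 went from 1080 to 1032 and 903, then 919 and 951, and at day 30 to 1308 and 739 normalized counts. *BRCA2*-5 went from 2592 to 2700 and 3032, then 3089 and 2691, and at day 30 to 3213 and 1919. In both of these sgRNAs replicate 1 was above and replicate 2 below day 0 at day 30, and the replicates differed by 0.82 for *BRCA2*-2 and 0.74 for *BRCA2*-5 on the log2 scale, more than 10 times the counting error of either value. The day 30 means of -0.14 ± 0.58 and -0.06 ± 0.53 (SD, n = 2 each) are thus averages of opposite values.

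The spread between replicates was widest at day 30, for the *BRCA1* and *BRCA2* sgRNAs and for the reference. The median size of the replicate difference over the 10 was 0.15 at day 10, 0.14 at day 20 and 0.36 at day 30, and over the non-targeting sgRNAs it was 0.16, 0.20 and 0.31. Replicate 2 was above replicate 1 at all 3 days for 3 of the 10 sgRNAs (26.6% of all sgRNAs) and below it at all 3 days for 2 (26% of all sgRNAs). Both counts are near the share of all sgRNAs, and over the whole screen the replicate difference of a day correlated with that of another (Pearson's r over sgRNAs 0.394 to 0.636).

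Among 25 genes of homologous recombination and the DNA damage response that were listed for comparison, only *BAP1* had sgRNAs under its name. *BAP1* encodes a deubiquitinase first described by its binding to BRCA1. At day 30 its 5 sgRNAs averaged -0.69 and -0.65, beside -0.04 for the highest and -1.31 for the lowest of them, *BAP1*-3, and 2 of the 5 were below -1. Their adjusted p from limma was 0.251 to 0.951. The 3 sgRNAs of AAVS1, a safe-harbor locus, averaged -0.40 and -0.51. Their means over both libraries ran from -0.83 to 0.03, with 1 of the 3 above 0. The non-targeting sgRNAs averaged 0.01 in both libraries. The *BRCA1* means (0.04 and 0.10) and the *BRCA2* means (0.08 and -0.24) were above those of *BAP1* and AAVS1 in both replicates. This difference was not tested. The other 61 sgRNAs with a gene name, those of *BAP1* included, had a median of -0.14 at day 30 and 67.2% of them were below 0, beside 6 of the 10 here and 50.3% of all sgRNAs.

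Compared over the 6 A549 libraries after day 0, the mean LFC of the *BRCA1* sgRNAs was closest to that of *AKT1*, which encodes a growth-signaling kinase, with a root mean square difference of 0.07. The next was *CDK8*, a kinase of the Mediator complex, with 0.14. The mean of the *BRCA2* sgRNAs was closest to *BRAF*, a kinase of the MAPK pathway, with 0.10, and then to *CDK8* with 0.11. *BRCA1* and *BRCA2* differed from each other by 0.16. The sgRNAs of the puromycin resistance gene were 0.17 from *BRCA1* and 0.23 from *BRCA2*. In these libraries the means ran from -0.21 to 0.10 for *BRCA1* and from -0.24 to 0.08 for *BRCA2*. The non-targeting sgRNAs averaged 0.00 to 0.04 and were not among the targets compared. Whether the closeness to these kinases is more than a shared place near 0 was not tested. Of 14 targets compared *MYC*, the gene of a growth-driving transcription factor, was the farthest from both, with 2.60 and 2.55.

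In the H1 screen none of the 10 sgRNAs passed the thresholds of the study for either population when p came from limma. These were a one-sided p under 0.05 with a median LFC of CXCR4+ over CXCR4- beyond 0.58 in size. The study took its p from MAGeCK, so the calls and shares here are not those of the study. Among the sgRNAs tested, all with a mean of at least 200 in both populations, 1.74% passed in the CXCR4- and 2.05% in the CXCR4+ population. All 10 were tested. Their median LFCs ran from -0.41 to 0.68 around a median of 0.10, beside 0.00 over all sgRNAs, and 9 of 10 lay between the 5th and the 95th percentile of the non-targeting sgRNAs, -0.53 and 0.50. limma gave each an adjusted p of 1, and 0% of all sgRNAs had an adjusted p under 0.05. With the screen as a block 0.0332% of all sgRNAs did, and 0 of the 10. Unadjusted, 0 of 10 had a two-sided p under 0.05, where 3.76% of all sgRNAs did. None of the 10 had CXCR4+ libraries that all lay above, or all below, its CXCR4- libraries, which held for 4.4% and 4.48% of all sgRNAs.

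*BRCA1*-5 was the only one of the 10 with a median LFC beyond 0.58 in size, as were 7.56% of all sgRNAs. Its normalized counts were 510, 493 and 978 in the CXCR4- libraries of screens 1, 2 and 3, and 928, 789 and 660 in the CXCR4+ libraries. The LFC was 0.86 and 0.68 in the first screens and -0.57 in screen 3, so the third screen went the other way. The median was 0.68, while the mean was 0.32 ± 0.78 (SD, n = 3 screens). limma, which compares means, gave a two-sided p of 0.338. Each screen weighed on the median. Leaving out screen 1 gave a median of 0.06 and leaving out screen 2 gave 0.15. Leaving out screen 3 gave 0.77, and this sgRNA then passed the thresholds for the CXCR4+ population. Of the 997 non-targeting sgRNAs tested, 985 were lower.

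*BRCA1*-4 had the closest agreement between screens. It had 1348, 1153 and 812 normalized counts in the CXCR4- libraries and 1012, 891 and 596 in the CXCR4+ libraries. The CXCR4+ library was the lower in each screen, by LFCs of -0.41, -0.37 and -0.45, which held for 12.6% of all sgRNAs. The levels of the populations still overlapped, because screen 3 was low in both. The median was -0.41, with 95 of 997 non-targeting sgRNAs lower, and the mean was -0.41 ± 0.04 (SD, n = 3). limma without a term for the screen gave a two-sided p of 0.166. limma with the screen as a block gave 0.128 (adjusted p = 0.944).

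*BRCA1*-3 had 1232, 1164 and 1063 normalized counts in CXCR4- cells and 1198, 1581 and 1437 in CXCR4+ cells, with LFCs of -0.04, 0.44 and 0.43. Screen 1 showed no difference beyond counting error, which was 0.05 to 0.06. *BRCA1*-1 had 936, 1599 and 1364 in CXCR4- cells and 885, 815 and 1379 in CXCR4+ cells. Only screen 2 set its populations apart, with an LFC of -0.97, beside -0.08 and 0.02 in the others. *BRCA1*-2 had 879, 986 and 1426 in CXCR4- cells and 971, 859 and 1570 in CXCR4+ cells, and its LFCs of 0.14, -0.20 and 0.14 were small in each screen.

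*BRCA2*-1, the lowest in A549 at day 30, had the highest median LFC of the *BRCA2* sgRNAs in H1. Its normalized counts were 904, 623 and 794 in CXCR4- cells and 841, 950 and 1041 in CXCR4+ cells. The LFCs were -0.10, 0.61 and 0.39, with a median of 0.39 and a mean of 0.30 ± 0.36 (SD, n = 3). *BRCA2*-4 had 789, 805 and 1225 in CXCR4- cells and 1184, 841 and 1229 in CXCR4+ cells. It was higher in CXCR4+ cells in each screen, as were 12.3% of all sgRNAs, but only screen 1 gave a sizable LFC, 0.58, beside 0.06 and 0.00.

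The other *BRCA2* sgRNAs had screens of opposite sign. *BRCA2*-2 had 679, 1130 and 758 normalized counts in CXCR4- cells and 1140, 882 and 829 in CXCR4+ cells, with LFCs of 0.75, -0.36 and 0.13. *BRCA2*-3 had 536, 1045 and 849 in CXCR4- cells and 801, 580 and 862 in CXCR4+ cells, with 0.58, -0.85 and 0.02. Both were higher in CXCR4+ cells in screen 1 and higher in CXCR4- cells in screen 2. *BRCA2*-5 had 1615, 1032 and 855 in CXCR4- cells and 1315, 871 and 1482 in CXCR4+ cells, with -0.30, -0.24 and 0.79, so that screen 3 stood against the others.

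By gene, the *BRCA1* sgRNAs averaged 0.09, -0.08 and -0.08 in screens 1, 2 and 3, and the *BRCA2* sgRNAs averaged 0.30, -0.16 and 0.27. The mean of the median LFCs was 0.15 for *BRCA1* and 0.07 for *BRCA2*, each smaller than the range between screens. The *BRCA1* value was not kept when any screen was left out, being -0.08 without screen 1, 0.0049 without screen 2 and 0.0048 without screen 3. The *BRCA2* value became 0.28 when screen 2 was left out, and was 0.06 and 0.07 when screen 1 or 3 was. The 95% interval of the LFC from limma lay within 1 in size for 8 of the 10 sgRNAs, and the exceptions were the lower bound of *BRCA1*-4 and the upper bound of *BRCA1*-5, 1.01. Set side by side, *BRCA1*-3 and *BRCA1*-5 had the highest values of their gene in both A549 and H1. Their day 30 LFCs were 0.37 and 0.44 in A549, and their median LFCs were 0.43 and 0.68 in H1. *BRCA1*-5 still had an LFC of -0.57 in H1 screen 3. *BRCA2*-1 was instead the lowest of its gene in A549, at -0.52, and the highest in H1, at 0.39. The A549 and H1 screens differ in cell line, editor and readout. The likeness of *BRCA1*-3 and *BRCA1*-5 between them was seen after the fact and was not tested.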

How the data were processed

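Genomic DNA was amplified for the sgRNAs, and reads were trimmed with Cutadapt and counted per sgRNA with MAGeCK by the authors; the labels also name CASAVA 1.4. No source used here gives the other versions. For each screen the authors deposited 1 table with a signal per sgRNA equal to its read count times 1 factor per library. The methods state scaling by total reads, but the deposited values do not sum to the same total in each library. Rescaling them to the same total moved the *BRCA1* day 30 mean LFC from 0.07 to 0.02. In every library 100% of values were whole multiples of 1 step within 0.05 reads, from which the read totals were derived. They are estimates made here, and no count test was run on them. Samples were grouped by their titles. The H1 library from before differentiation was not analysed here. Libraries of 1 group differed by more than the sampling noise of reads (chi-square per sgRNA 23.8 to 91.6), and each was counted as a sample of its own; this does not tell separate cultures from repeated amplifications of the same DNA.

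limma 3.58.1 in R 4.3.3 (lmFit, eBayes with a trend) was fitted on log2(normalized count + 1) over all 9077 sgRNAs in A549, with day as a factor over the 7 libraries, and over the 9044 sgRNAs with a mean of at least 200 in both populations in H1. The methods took H1 p values from MAGeCK and state no test for A549. p values are two-sided unless stated, with Benjamini-Hochberg adjustment over all sgRNAs tested. The fits were tried only on simulated data with independent noise of equal size in every library. That trial does not cover the wider day 30 spread or the replicate correlation seen in A549. Tables were handled in Python 3.11.15 (pandas 2.3.3, numpy 2.4.6, scipy 1.17.1). Gene positions are those of GENCODE on GRCh37, the build named in the methods for the m6A sites; none is named for sgRNAs against genes. Named were all 10 sgRNAs, the 2 targets of most similar A549 course for each gene, and *BAP1*. The members and lists were chosen with earlier results of these data known.

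The methods describe separate infections and sorts for the H1 screens, so libraries of the same screen were paired to compute the LFC of each screen. The main limma fit in H1 had no term for the screen, so its p values and 95% intervals are unpaired. Only an alternative H1 fit took the pairs into account. Deviations of paired libraries correlated at 0.085, 0.073 and 0.293. In A549 the differences between replicates 2 and 1 correlated at 0.570, 0.636 and 0.394 between days. Alternatives were other pseudocounts, scalings and filters, a replicate block, no variance trend, a linear trend over day and leaving out each library or screen.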

Additional observations from a re-analysis of the deposited data

Results flagged for a closer look

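*BRCA2*-4 was set apart because both A549 libraries of day 10, and both of day 20, were below day 0 while both of day 30 were above it. On the log2 scale its normalized count was 0.52 higher at day 30 than at day 20 and 0.50 higher than at day 10, as the mean of 2 libraries each. limma gave these steps adjusted p values of 0.876 and 0.394 (unadjusted 0.0115 and 0.014), so neither passed. The unadjusted p values do not allow for the choice of this sgRNA by its change of sign over the same steps. Of all sgRNAs, 1.16% had the same order of signs, and the day 0 library is shared by all of them.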

How the results depend on the processing

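Of 530 values recomputed for single *BRCA1* and *BRCA2* sgRNAs, 506 kept their direction and their side of the threshold, 23 changed sign and 1, *BRCA1*-5 in H1 without screen 3, passed it. Many of these values could not change direction. Leaving out a library of another day, a block or dropping the variance trend leaves the LFC as it was. In A549 the threshold was an adjusted p under 0.05, which at most 1 sgRNA of the screen passed in the main fit at any day. The 506 are thus no measure of robustness. In A549 the lowest adjusted p of the 10 sgRNAs from limma over the alternatives was 0.0989, for *BRCA1*-3 at day 30 without day 30 replicate 1. With the replicate number as a random block (correlation 0.379) the day 30 adjusted p of the 10 was 0.394 to 0.963 and 1 sgRNA of the screen passed. A fixed replicate block, chosen after seeing the data, gave 0.147 to 0.927 and passed 176 of the screen, 25 of them non-targeting; day 0 has no partner in it. With the screen as a block in H1 the 10 had 0.944 to 0.999, and 3 sgRNAs of the screen passed. The linear trend over day passed 152, none of them a *BRCA1* or *BRCA2* sgRNA, and the fit without the variance trend passed 0. Leaving out a library gave 0 to 4 in A549, and leaving out a screen gave 0 to 1 in H1.

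Rescaled to the same total or the same non-targeting median, the *BRCA1* mean at day 30 was 0.02 and 42 sgRNAs were above 1. *BRCA1*-5 at day 10 was then -0.0037 and -0.03, *BRCA2*-3 at day 10 was -0.0023 and -0.03, and *BRCA2*-3 at day 30 was -0.0039 and -0.0047. Without each library in turn, the sgRNAs below -1 numbered 138 to 277 and those above 1 numbered 64 to 149, with the high values when a day 30 library was left out. The number of the 10 called in H1 was 0 to 1, screen-wide calls were 208 to 334 in CXCR4- and 215 to 391 in CXCR4+ cells, and the H1 mean of *BRCA1* was -0.08 to 0.0049. Some single sgRNAs changed sign without a library because their replicates lay on both sides of 0. Without the first or second library of the day itself, the A549 range was -0.51 to 0.07 for *BRCA1*-1, -0.22 to 0.05 for *BRCA1*-4, -0.55 to 0.28 for *BRCA2*-2, -0.03 to 0.12 for *BRCA2*-3 and -0.43 to 0.31 for *BRCA2*-5 at day 30. At day 20 it was -0.11 to 0.46 for *BRCA1*-5 and -0.06 to 0.28 for *BRCA2*-3. At day 10 it was -0.21 to 0.04 for *BRCA1*-4, -0.21 to 0.21 for *BRCA1*-5 and -0.02 to 0.03 for *BRCA2*-3. Without a screen, the H1 median LFC was -0.03 to 0.14 for *BRCA1*-2, -0.11 to 0.44 for *BRCA2*-2, -0.41 to 0.30 for *BRCA2*-3 and -0.27 to 0.27 for *BRCA2*-5.

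The planned edgeR test on whole reads was not run. At day 30 in A549 the median replicate difference of these sgRNAs was 0.36 and their counting error, which leaves out amplification, at most 0.07. The lone day 0 library, shared by every A549 LFC, has no replicate check.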
